A study of Mus musculus with 6 samples.

Results

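Bone morphogenetic protein (BMP) transcripts and their most direct readouts were examined in heart ventricles of newborn mice, as the 10 genes Bmp2, Bmp4, Bmp5, Bmp6, Bmp7, Bmp10, Id1, Id2, Id3 and Smad6. They were taken by symbol from a deposited table of 24062 gene symbols, in which all 10 were present. The libraries came from both ventricles of male C57/Bl6N mice 1 day old, with 3 libraries from mice that carried Cre for a cardiac-specific knockout of Med12 (Med12cKO) and 3 from Cre-negative controls (CTL). Med12 encodes a subunit of the kinase module of Mediator, the complex that connects transcription factors with RNA polymerase II. The promoter that drives Cre, and whether the controls carried the floxed allele, are not given in the sources used here. Since Cre was absent from the controls, what Cre itself does and what the loss of Med12 does cannot be told apart.

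BMPs are secreted dimers of the TGF-beta superfamily. They bind paired type I and type II receptor kinases, which phosphorylate SMAD1, SMAD5 and SMAD9, and these enter the nucleus with SMAD4. The genes for the ID proteins, helix-loop-helix factors without a DNA-binding region that sequester their partners, and for the inhibitory SMAD6 are among the promptest transcriptional targets of the pathway in many cell types. In the mouse heart BMP2 and BMP4 act in the atrioventricular canal, cushions and outflow tract, and BMP10 is made by trabecular myocardium in the embryo and by the atria later.

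Bmp2 was the member whose groups stood furthest apart, at 41.7% of the control level in Med12cKO ventricles, and its libraries did not overlap between groups. The other 9 members overlapped between the groups. Among all genes tested, 8.23% had groups that did not overlap, and 3.64% had Med12cKO wholly below CTL. Levels of Id1, Id2 and Id3 in Med12cKO lay at 98.8%, 99.7% and 101% of control, and that of Smad6 at 93.1%. Bmp10 spread over a wider range than any other member within both groups. None of the 10 members passed the test across all genes at an adjusted p under 0.05 (edgeR quasi-likelihood test, Benjamini-Hochberg over 13629 genes), where 3 genes or 0.022% of those tested did, 2 of them, or 0.0147%, lower in Med12cKO. These were Sbk2 and Sbk3, lower, and the smooth muscle calponin gene Cnn1, higher, named after their values were seen. At an unadjusted p under 0.05 the same test gave 1 member, Bmp2, against 3.78% of all genes. DESeq2 called 1 member, Bmp2, against 0.508% of the genes for which it gave an adjusted p, and limma-voom called 0 members, against 0.0293% of all genes.

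The libraries held between 8453346 and 10911698 counts. Values are CPM, the counts of a gene scaled to library size with TMM factors. The target of the knockout, Med12, measured 61.6, 84.96 and 41.3 CPM in Med12cKO replicates 1 to 3, against 103, 176 and 113 CPM in CTL replicates 1 to 3, so every Med12cKO library lay below every control. Its log2 fold change was −1.06 (SE 0.30), with an adjusted p of 0.765 in edgeR and 0.025 in DESeq2. The 8 cardiomyocyte markers summed to between 27452 and 34864 CPM in Med12cKO and between 37125 and 45147 CPM in CTL, and the 12 endothelial markers to between 1751 and 2030 CPM and between 1910 and 2107 CPM. Tissue outside the heart was present in some libraries. The 10 T-cell and thymus markers summed to 786 CPM in Med12cKO replicate 1 and 784 CPM in CTL replicate 3, and to at most 5.40 CPM in the other 4. The 6 lung and airway markers summed to 82.9 CPM in Med12cKO replicate 2 and 58.3 CPM in CTL replicate 1, and to at most 0.787 CPM in the other 4. Some skeletal muscle markers stood apart in Med12cKO replicate 1. Mylpf, the fast skeletal myosin light chain gene, had 385 counts there against 42 to 74 in the other 5 libraries. Myh1, a fast skeletal myosin gene, had 110 against 0 to 7. Other markers of the list did not stand apart there. Actn3 had 79 counts in Med12cKO replicate 1 and 77 in CTL replicate 3. Ckm measured 1807 CPM in Med12cKO replicate 1 and 2936 CPM in Med12cKO replicate 3. The 12 markers summed to 2196 CPM in Med12cKO replicate 1, 3213 CPM in Med12cKO replicate 3 and between 2121 and 2773 CPM in CTL. The lung-containing libraries are the pair whose sample description opens with the letter J, and the other 4 open with the letter I. What the letter stands for is not given in the sources used here.

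**Figure D1:**
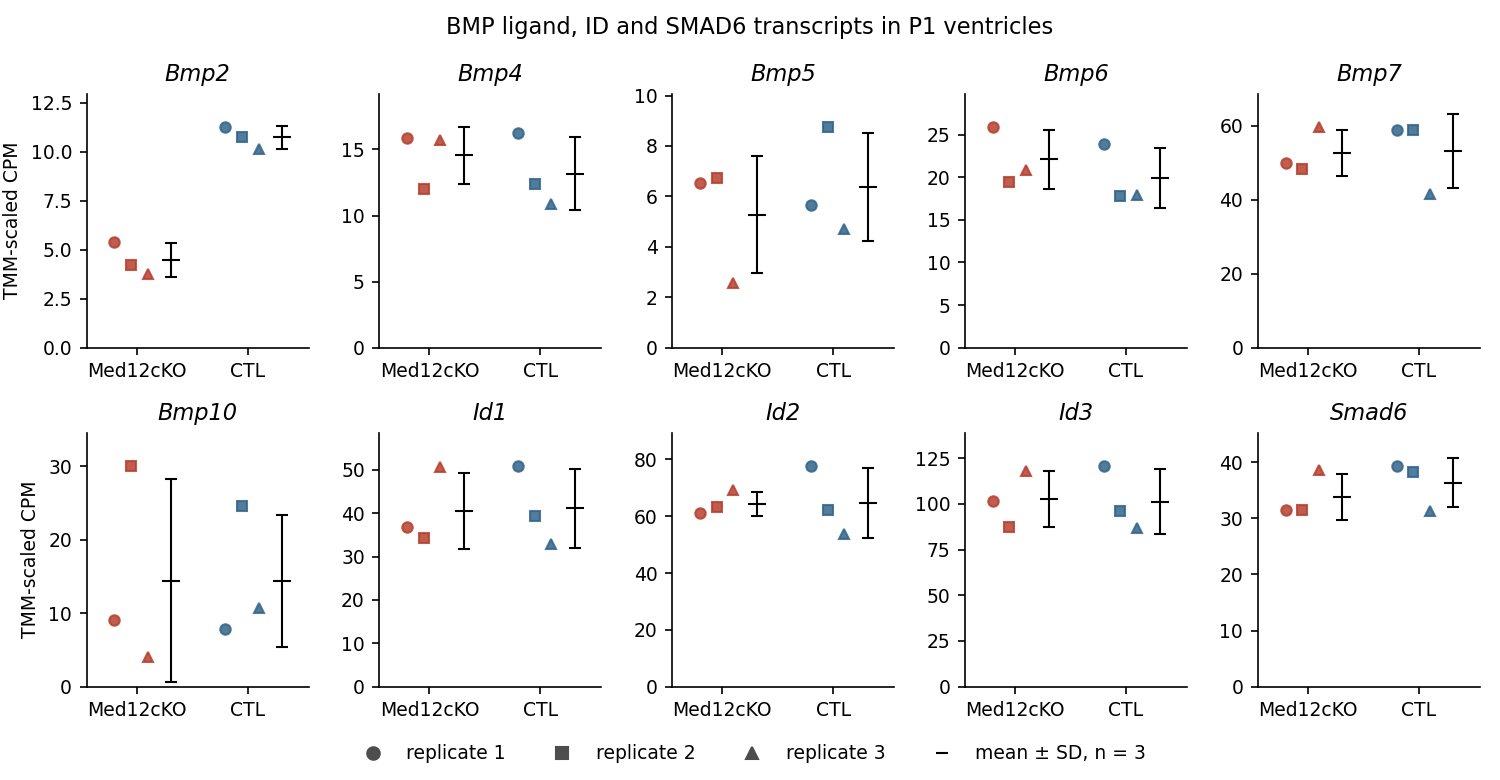
TMM-scaled CPM of each member in every library, Med12cKO at the left and CTL at the right of each panel, with the replicate shown by the marker and the mean ± SD (n = 3) beside the points. Bmp2 sits between 3.77 and 5.41 CPM in Med12cKO and between 10.1 and 11.3 CPM in CTL, while every other panel overlaps and Bmp10 has its highest points in replicate 2 of both groups.

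Compared with each other on the scale of CPM per kb of exon, the ID transcripts stood above the ligands in both groups. Id3 averaged 57.2 ± 8.59 CPM per kb in Med12cKO and 56.5 ± 9.86 CPM per kb in CTL (SD, n = 3 each). Id1 followed at 35.0 ± 7.53 and 35.4 ± 7.89 CPM per kb, and Id2 at 26.4 ± 1.72 and 26.5 ± 4.999 CPM per kb, in the same order of groups. Bmp7 was the most abundant ligand, at 13.1 ± 1.53 CPM per kb in Med12cKO and 13.2 ± 2.49 CPM per kb in CTL, next to Smad6 at 10.5 ± 1.28 and 11.3 ± 1.36 CPM per kb. Then came Bmp4, Bmp6 and Bmp10 in both groups. The order of the last 2 genes was turned round between the groups: Bmp2 stood below Bmp5 in Med12cKO, at 1.26 ± 0.24 against 1.31 ± 0.58 CPM per kb, and above it in CTL, at 3.02 ± 0.16 against 1.58 ± 0.53 CPM per kb. Neighbours whose ranges overlapped in both groups were Bmp4 with Bmp6 and Bmp6 with Bmp10. Bmp10 with Bmp5 and Bmp5 with Bmp2 overlapped in Med12cKO, and Id1 with Id2, Bmp7 with Smad6 and Bmp10 with Bmp2 in CTL.

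Bmp2 encodes a ligand that patterns the atrioventricular canal and induces cushion formation. The gene lies on chromosome 2 at 133552159 to 133562885 on the plus strand of GRCm38, is protein coding, and shares no exon bases with another gene model. It had 48, 43 and 35 counts in Med12cKO replicates 1 to 3, against 98, 113 and 106 counts in CTL replicates 1 to 3. After scaling these were 5.41, 4.24 and 3.77 CPM in Med12cKO, against 11.3, 10.8 and 10.1 CPM in CTL. The highest Med12cKO library was below the lowest control, and each group was tight, its largest value being 1.44 times its smallest in Med12cKO and 1.11 times in CTL. The means were 4.47 ± 0.85 CPM in Med12cKO and 10.7 ± 0.57 CPM in CTL (SD, n = 3 each). The log2 fold change was −1.26 (SE 0.21, 95% interval −1.74 to −0.78), with an adjusted p of 0.129 in the edgeR quasi-likelihood test. DESeq2 gave −1.26 (SE 0.29) with an adjusted p of 0.0056, and limma-voom an adjusted p of 0.143. Permuting the libraries between groups (exact, two-sided, log2 CPM) gave p = 0.10, the smallest that 3 against 3 libraries allow. Of all genes tested, 3.64% had every Med12cKO library below every control.

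Bmp2 was lower in Med12cKO within each description letter and without the libraries that held thymus transcripts. Among the 4 libraries of letter I its log2 fold change was −1.18, and between the single Med12cKO and the single CTL library of letter J the log2 ratio was −1.41. Without Med12cKO replicate 1 and CTL replicate 3, which held thymus transcripts, the log2 fold change was −1.46 (edgeR adjusted p = 0.308). The libraries with neither thymus nor lung transcripts were Med12cKO replicate 3, at 3.77 CPM, and CTL replicate 2, at 10.8 CPM. In all 6 fits that left out 1 library it lay between −1.43 and −1.15, and in none did it pass edgeR (adjusted p of 0.233 to 0.750).

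Most markers of the atria were lower in the same Med12cKO libraries. Of the 12 atrial markers tested, 0 passed edgeR over all genes, 7 had an unadjusted p under 0.05, all lower, and DESeq2 called 4, beside 3.78% and 0.508% of all genes. General cardiomyocyte markers were also lower, with 8 of 8 log2 fold changes negative and a median of −0.32. Of these 0 passed edgeR, 2 had an unadjusted p under 0.05 and DESeq2 called 2. The summed level of the atrial markers ran from 2021 to 2259 CPM in Med12cKO and from 2520 to 3206 CPM in CTL. The median log2 fold change of the atrial list was −0.41, beside 0.01 for all genes tested. Of the 12 markers 11 had a negative log2 fold change, and 6 lay wholly below the controls, beside 3.64% of all genes. Myl4, also an atrial myosin light chain gene, went the other way, at 0.16. Myl7, an atrial myosin light chain gene and the largest difference of the list, differed by −1.10 (SE 0.18) on the log2 scale. Its adjusted p was 0.129 in edgeR and 2.1e-07 in DESeq2. Gja5, the connexin of atria and conduction tissue, differed by −0.99 (SE 0.14), with an adjusted p of 0.0920 in edgeR and 6.2e-08 in DESeq2. In bulk tissue fewer cells of a type and less RNA per cell cannot be told apart, and the part of the atrial and cardiomyocyte markers in the Bmp2 difference was not tested.

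The genes whose pattern over the 6 libraries was nearest to that of Bmp2 were Podn, Myl7 and Egr1, out of 10791 genes with an average log2 CPM of at least 3. Likeness was the root mean square difference between log2 CPM values centred on each gene's mean, which was 0.21 for Podn, 0.23 for Myl7 and 0.24 for Egr1. Podn, which encodes a small leucine-rich matrix proteoglycan, measured 12.9, 6.81 and 8.72 CPM in Med12cKO replicates 1 to 3, against 21.6, 20.1 and 23.4 CPM in CTL replicates 1 to 3. Egr1, an immediate-early transcription factor gene, measured 46.3, 34.2 and 37.0 CPM in Med12cKO, against 87.1, 62.3 and 90.1 CPM in CTL. These genes share with Bmp2 a Med12cKO group that lay wholly below CTL. They were chosen for this likeness, so their difference is a description.

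Bmp10 encodes a ligand needed for trabecular growth in the mouse embryo. It lies on chromosome 6 at 87428994 to 87437677, plus strand, with no exon bases shared with another gene model. It measured 9.13, 30.1 and 3.98 CPM in Med12cKO replicates 1 to 3, against 7.83, 24.6 and 10.7 CPM in CTL replicates 1 to 3. Replicate 2 was the highest library in both groups, and the groups overlapped throughout. The highest of the Med12cKO libraries was 7.56 times the lowest, and the same ratio was 3.141 in CTL. Between the groups the log2 fold change was 0.00 (SE 0.86), with a 95% interval from −2.19 to 2.20 that covers a fall to 0.218 of control and a rise of 4.61-fold (edgeR adjusted p = 0.9999). Without Med12cKO replicate 2 the log2 fold change was −1.14, in the letter I libraries −1.41, and without CTL replicate 2 it was 0.64, none of which passed edgeR.

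The 3 genes nearest to Bmp10 over the libraries were Tenm4, Rcor1 and Pde3a, with root mean square differences of 0.14, 0.15 and 0.17 on the log2 scale. Rcor1, which encodes a corepressor that binds the factor REST, measured 11.95, 33.1 and 4.74 CPM in Med12cKO replicates 1 to 3, against 7.25, 27.6 and 11.3 CPM in CTL replicates 1 to 3. Pde3a, a phosphodiesterase of heart muscle that breaks down cyclic nucleotides, measured 9.25, 26.7 and 4.41 CPM in Med12cKO, against 6.44, 19.4 and 9.37 CPM in CTL. Like Bmp10, both were highest in replicate 2 of each group and lowest in Med12cKO replicate 3. The 3 genes were chosen for their likeness to Bmp10, so this shared pattern is a description. Genes with the longest exons in total also differed between libraries, in the same order as Bmp10. Genes with over 6000 exon bases had a median log2 deviation from the mean of all libraries of −0.03, 0.14 and −0.13 in Med12cKO replicates 1 to 3, and of −0.06, 0.07 and −0.02 in CTL replicates 1 to 3. The exons of Bmp10 span 4490 bases, those of Rcor1 5684, of Pde3a 12737 and of Tenm4 21021. Genes with 2000 to 6000 exon bases, a class that includes Bmp10 and Rcor1, had another order. Their medians were −0.007, −0.07 and 0.06 in Med12cKO replicates 1 to 3, and 0.02, −0.01 and −0.003 in CTL replicates 1 to 3. This class was lowest in Med12cKO replicate 2 and highest in Med12cKO replicate 3. The part of transcript length in the spread of Bmp10 was not tested.

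The 250 bases before the annotated start of Bmp10, chr6:87428744-87428993 on the plus strand of GRCm38.p6, are given from RefSeq because this gene varied most. Both strands were searched for GGCGCC and GTCTAGAC, which SMAD proteins bind, for the shorter SMAD element CAGAC, for TATAAA and for the E box CANNTG. None of the 5 motifs was found, so no base is in capitals.
Bmp10: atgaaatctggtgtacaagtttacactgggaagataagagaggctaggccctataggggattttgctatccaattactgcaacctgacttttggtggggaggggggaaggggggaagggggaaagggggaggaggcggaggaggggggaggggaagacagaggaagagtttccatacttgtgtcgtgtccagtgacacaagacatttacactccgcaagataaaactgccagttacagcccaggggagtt
In the 32851 RefSeq promoters of the same length, 9.59% held GGCGCC, 0.167% GTCTAGAC, 42.2% CAGAC, 12.4% TATAAA and 66.2% CANNTG.

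Of the remaining ligands, Bmp7 was the most abundant and gave the narrowest interval. Bmp7, a ligand that acts redundantly with Bmp5 in mouse heart development, lies on chromosome 2 at 172868012 to 172940321, minus strand. It measured 49.96, 48.4 and 59.7 CPM in Med12cKO replicates 1 to 3, against 58.8, 58.9 and 41.5 CPM in CTL replicates 1 to 3. The values interleaved, and the log2 fold change was −0.01 (SE 0.16, 95% interval −0.38 to 0.36).

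Bmp4, which acts in the outflow tract and cushions, lies on chromosome 14 at 46383520 to 46390669, minus strand, with 3.96% of its exon bases shared with an opposite-strand model. It measured 15.9, 12.04 and 15.7 CPM in Med12cKO replicates 1 to 3, against 16.2, 12.4 and 10.903 CPM in CTL replicates 1 to 3, a log2 fold change of 0.14 (SE 0.21, 95% interval −0.32 to 0.61). Both the highest and the lowest of its 6 values were controls. Bmp6, best known in the mouse for its control of iron through hepcidin, lies on chromosome 13 at 38345107 to 38500302, plus strand, and shares 5.74% of its exon bases with Txndc5 on the opposite strand. It measured 25.9, 19.4 and 20.9 CPM in Med12cKO, against 23.9, 17.8 and 17.9 CPM in CTL, a log2 fold change of 0.15 (SE 0.18, 95% interval −0.26 to 0.56). Replicate 1 was its highest library in both groups.

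Bmp5 was the least abundant ligand per kb in CTL. It lies on chromosome 9 at 75775364 to 75900310, plus strand. It measured 6.54, 6.71 and 2.58 CPM in Med12cKO replicates 1 to 3, against 5.64, 8.76 and 4.69 CPM in CTL replicates 1 to 3. Med12cKO replicate 3 was lowest, with 24 counts, and the rest overlapped. The log2 fold change was −0.27 (SE 0.38, 95% interval −1.14 to 0.60), and without Med12cKO replicate 3 it was 0.05. Another model, read from the opposite strand, covers 46.7% of its exon bases, and whether strand was used in counting is not given in the sources used here.

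**Figure D2:**
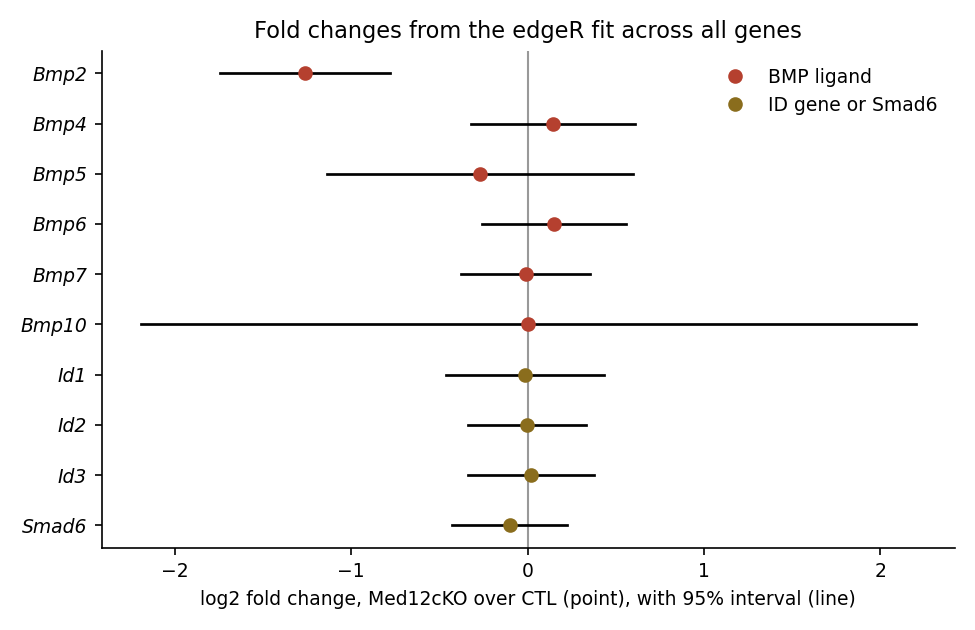
Log2 fold change of Med12cKO over CTL for each member (points) with its 95% interval (lines), from the edgeR fit across all genes, ligands above and targets below. The interval of Bmp2, from −1.74 to −0.78, lies apart from 0, and that of Bmp10, from −2.19 to 2.20, is the widest.

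Added up per exon length, the 6 ligands gave similar totals in both groups. The sum was 31.3, 31.9 and 29.8 CPM per kb in Med12cKO replicates 1 to 3, against 34.3, 35.4 and 26.2 CPM per kb in CTL replicates 1 to 3. The Med12cKO values lay inside the control range. Bmp2 supplied 4.86%, 3.74% and 3.56% of the sum in Med12cKO, against 9.25%, 8.55% and 10.899% in CTL. Its share in every Med12cKO library was below that in every control. Bmp7 supplied the most in all 6 libraries, at 42.4% ± 6.55 in Med12cKO and 41.2% ± 1.601 in CTL (SD, n = 3 each). The share of Bmp10 ran from 2.98% to 21.0% in Med12cKO and from 5.08% to 15.5% in CTL. These are shares of transcripts and say nothing of secreted protein or of dimers.

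**Figure D3:**
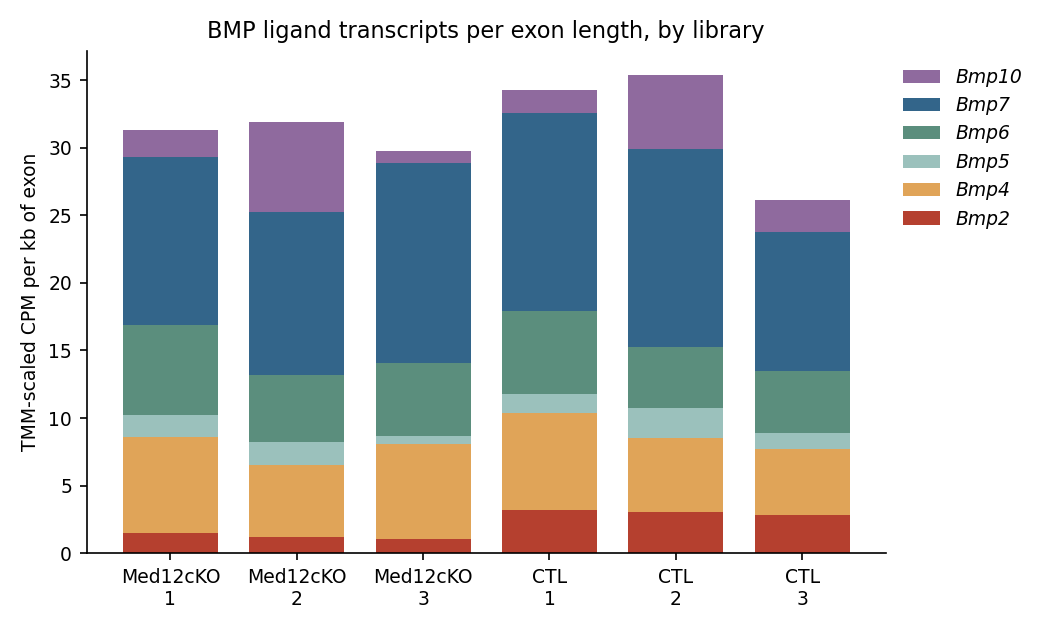
Stacked TMM-scaled CPM per kb of exon of the 6 BMP ligands in each library, the 3 Med12cKO libraries at the left and the 3 CTL libraries at the right. The band of Bmp2 at the bottom is 1.06 to 1.52 CPM per kb high in Med12cKO and 2.85 to 3.17 in CTL, while the whole bars overlap between the groups.

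The ID genes are transcriptional readouts of BMP-SMAD signalling, although other signals act on them too. Id1, on chromosome 2 at 152736251 to 152737410, plus strand, measured 36.9, 34.3 and 50.6 CPM in Med12cKO replicates 1 to 3, against 51.0, 39.4 and 32.9 CPM in CTL replicates 1 to 3. Its log2 fold change was −0.02 (SE 0.20, 95% interval −0.46 to 0.43). Id3, on chromosome 4 at 136143497 to 136145755, plus strand, measured 102, 87.5 and 118 CPM in Med12cKO, against 121, 95.9 and 86.8 CPM in CTL. For both genes CTL replicate 1 was the highest library and Med12cKO replicate 3 the next.

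The fold change of Id3 was 0.02 on the log2 scale (SE 0.16, 95% interval −0.34 to 0.38). Id2, on chromosome 12 at 25093799 to 25097140, minus strand, and known in the heart for its part in the conduction system, measured 61.0, 63.2 and 69.1 CPM in Med12cKO, against 77.8, 62.3 and 53.8 CPM in CTL. Its log2 fold change was 0.00 (SE 0.15, 95% interval −0.34 to 0.33). As with Id1 and Id3, CTL replicate 1 was the highest and CTL replicate 3 the lowest library.

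Smad6 encodes the inhibitory SMAD that acts on BMP type I receptors and restrains the pathway, and it is strongly expressed in mouse valves and vessels. It lies on chromosome 9 at 63953076 to 64022059, minus strand. It measured 31.5, 31.4 and 38.5 CPM in Med12cKO replicates 1 to 3, against 39.4, 38.2 and 31.3 CPM in CTL replicates 1 to 3. The groups overlapped over nearly their whole range, and the log2 fold change was −0.10 (SE 0.14, 95% interval −0.43 to 0.22). Of these 4 targets Id1 had the widest 95% interval, from 0.725 to 1.35 of control.

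The 4 targets had their extremes in the same libraries, which did not follow genotype. Id1, Id2, Id3 and Smad6 were all highest in CTL replicate 1, next highest in Med12cKO replicate 3 and lowest in CTL replicate 3. The median of their log2 deviations was −0.10, −0.18 and 0.19 in Med12cKO replicates 1 to 3, and 0.27, −0.03 and −0.24 in CTL replicates 1 to 3. Genes with under 2000 exon bases, a class that includes Id1 and Id3, had medians of −0.06, −0.18 and 0.25 in Med12cKO replicates 1 to 3, and 0.13, −0.08 and −0.07 in CTL replicates 1 to 3, so they too were high in Med12cKO replicate 3 and CTL replicate 1. The part of length in the pattern was not tested. CTL replicate 1 is also 1 of the libraries with lung transcripts. In the letter I libraries, which leave both of those out, the log2 fold changes were 0.29 for Id1, 0.18 for Id2, 0.28 for Id3 and 0.02 for Smad6, none of which passed edgeR.

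**Figure D4:**
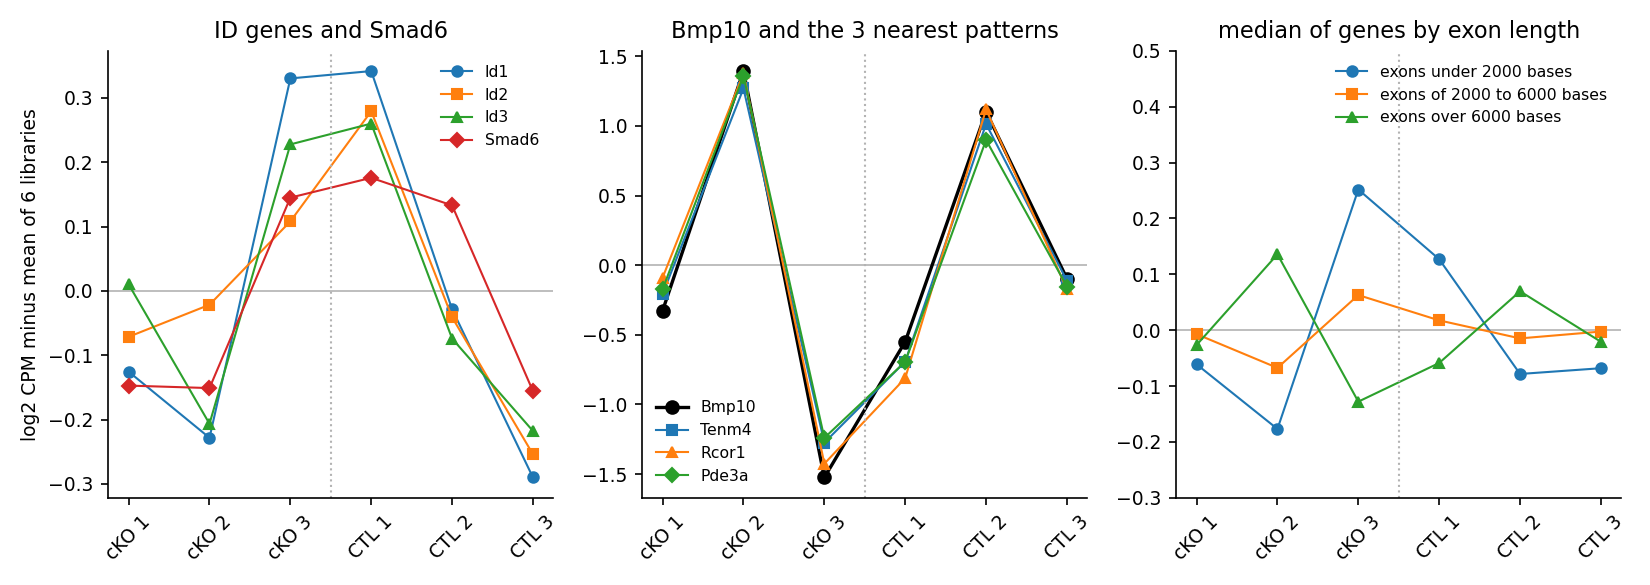
Log2 CPM minus the mean over the 6 libraries, with lines joining the values of a gene or class, for the ID genes and Smad6 (left), Bmp10 with Tenm4, Rcor1 and Pde3a (centre) and the medians of genes by exon length (right). Med12cKO libraries (cKO) stand left of the dotted line and CTL right of it, and the ID genes and Smad6 peak in Med12cKO replicate 3 and CTL replicate 1, whereas Bmp10 peaks in replicate 2 of both groups.

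Of these targets, Smad6 is the one whose sequence is shown from RefSeq (GRCm38.p6). It covers the 250 bases before the annotated start, chr9:64022060-64022309 on the minus strand. The Smad6 sequence does not stand for the other targets. For Id2 only 89 bases of this window could be searched. They held GGCGCC at −231 to −226 and the E box CAGCTG at −196 to −191 from the start. Id3 had no bases there to search, and Id1 had no entry. None of the 5 motifs named above was found in the Smad6 sequence, so no base is in capitals.
Smad6: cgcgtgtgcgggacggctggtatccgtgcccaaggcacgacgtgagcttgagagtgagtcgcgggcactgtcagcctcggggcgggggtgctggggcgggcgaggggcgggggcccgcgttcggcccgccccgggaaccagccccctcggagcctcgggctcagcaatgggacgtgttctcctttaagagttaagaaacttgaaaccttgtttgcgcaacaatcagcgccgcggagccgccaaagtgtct

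Receptors for BMPs and their co-receptors were measured for 12 of 14 listed genes, and none passed edgeR over all genes, none had an unadjusted p under 0.05 and DESeq2 called 0. Their log2 fold changes ran from −0.29 to 0.23 with a median of −0.02. The type I receptor gene Bmpr1a averaged 181 ± 35.6 CPM in Med12cKO and 181 ± 16.4 CPM in CTL, and the type II receptor gene Bmpr2 162 ± 15.9 and 147 ± 8.96 CPM (SD, n = 3 each). Eng, the endothelial co-receptor endoglin, averaged 349 ± 42.7 CPM in Med12cKO and 353 ± 15.2 CPM in CTL. Acvrl1, the endothelial type I receptor for BMP9 and BMP10, averaged 43.9 ± 3.30 CPM in Med12cKO and 44.6 ± 4.58 CPM in CTL.

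The SMAD transducers and their regulators were all measured, 15 of 15, and again 0 passed edgeR, 0 had an unadjusted p under 0.05 and DESeq2 called 0. Their median log2 fold change was −0.03, within a range of −0.26 to 0.17. Smad1 averaged 38.3 ± 5.72 CPM in Med12cKO and 40.6 ± 5.52 CPM in CTL, and Smad5 111 ± 20.5 and 114 ± 7.80 CPM. Smad7, the other inhibitory SMAD gene, averaged 31.5 ± 5.97 CPM in Med12cKO and 37.7 ± 3.48 CPM in CTL, a log2 fold change of −0.26 (SE 0.16).

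Extracellular antagonists and modulators of the pathway gave no call. Of 19 listed genes 14 were tested, 12 with a positive log2 fold change and a median of 0.18. However, 0 passed edgeR over all genes or DESeq2, and 2 had an unadjusted p under 0.05, both higher, beside 3.78% of all genes. By library the median log2 deviation of the list was 0.07, 0.29 and −0.17 in Med12cKO replicates 1 to 3, and 0.02, −0.06 and −0.19 in CTL replicates 1 to 3. The groups overlapped, with Med12cKO replicate 2, 1 of the libraries with lung transcripts, the highest and Med12cKO replicate 3 below CTL replicates 1 and 2. Fstl3, which encodes a follistatin-like binding protein for activins and some BMPs, averaged 22.8 ± 2.55 CPM in Med12cKO and 17.3 ± 1.63 CPM in CTL without overlap (log2 fold change 0.40, SE 0.16, edgeR adjusted p = 0.9999). Of its exon bases 47.3% are shared with Prss57 on the opposite strand. Sost, a BMP and Wnt antagonist gene, averaged 34.4 ± 14.04 CPM in Med12cKO and 20.9 ± 1.303 CPM in CTL, with its highest value of 49.1 CPM in Med12cKO replicate 2. It is named because it was the other gene at that unadjusted p, and was chosen after its values were seen. Nog, which encodes noggin, had at most 4 counts in any library and was not tested.

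Other known BMP-SMAD targets were divided in direction. Of 18 listed genes 13 were tested, 5 with a positive and 8 with a negative log2 fold change, and the median was −0.07. None passed edgeR or DESeq2, and 0 had an unadjusted p under 0.05. Tbx3, a repressor of the working-muscle programme in conduction tissue, averaged 18.0 ± 0.98 CPM in Med12cKO and 21.8 ± 3.35 CPM in CTL without overlap (log2 fold change −0.28, SE 0.16). Hey1, a transcriptional repressor gene downstream of Notch, averaged 22.1 ± 0.45 CPM in Med12cKO and 24.3 ± 1.08 CPM in CTL, also without overlap (log2 fold change −0.14, SE 0.13). Id4, the fourth ID gene, averaged 7.42 ± 2.93 CPM in Med12cKO and 5.32 ± 0.80 CPM in CTL (log2 fold change 0.48, SE 0.30). Groups did not overlap in 8.23% of all genes tested.

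Among genes of trabeculation, in which BMP10 acts in the mouse, 17 of 18 were tested. None passed edgeR over all genes, and 2 had an unadjusted p under 0.05, beside 3.78% of all genes. DESeq2 called 1, Hey2, beside 0.508% of the genes for which it gave an adjusted p. In this list 2 genes lay wholly above and 1 wholly below the controls, where 8.23% of all genes did not overlap. Hey2, the compact-layer and ventricular repressor gene, averaged 66.8 ± 10.6 CPM in Med12cKO and 137 ± 18.7 CPM in CTL, without overlap. Its log2 fold change was −1.04 (SE 0.15), with an adjusted p of 0.111 in edgeR and 6.0e-07 in DESeq2. Nrg1, the endocardial neuregulin, was near the limit of measurement at 2.38 ± 0.62 CPM in Med12cKO and 0.919 ± 0.61 CPM in CTL (log2 fold change 1.40, SE 0.47, edgeR adjusted p = 0.913). Cited1, a transcriptional coactivator gene, averaged 93.8 ± 32.1 CPM in Med12cKO and 68.2 ± 4.34 CPM in CTL, with its 3 Med12cKO values above the controls (log2 fold change 0.46, SE 0.21). Of the remaining BMP and GDF ligand genes on the list, 4 of 13 were expressed enough to test, Gdf6, Gdf10, Gdf11 and Gdf15, and 0 passed either tool or had an unadjusted p under 0.05.

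**Figure D5:**
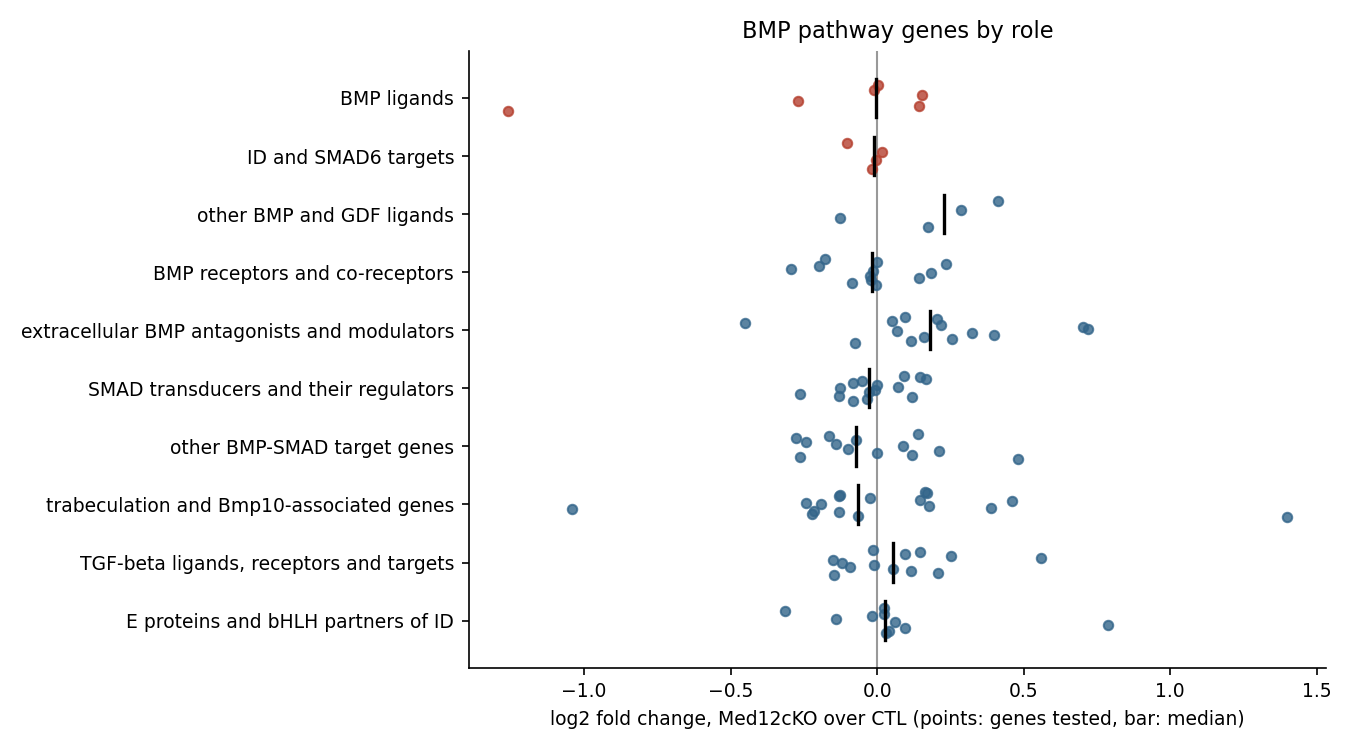
Log2 fold change of Med12cKO over CTL for each tested gene (points) of 10 lists of BMP pathway and neighbouring genes, with the median of each list as a black bar. List medians lie between −0.07 and 0.23, and Bmp2 at −1.26, Hey2 at −1.04 and Nrg1 at 1.40 stand furthest from 0.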

How the data were processed

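Total RNA came from a TRIzol extraction of the 2 ventricles, per the labels' protocols. The authors deposited unnormalized read counts for each gene symbol in 6 columns, each matched to a sample by its description. Per the submitters' processing notes, the build was GRCm38 (mm10) and the tools included featureCounts, TopHat2 2.0.0 and edgeR 3.14.0. The annotation and strand setting are not given in the sources used here, so opposite-strand overlaps may add reads to a gene.

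The test was edgeR 4.0.16's robust quasi-likelihood F test (R 4.3.3), with TMM scaling of the counts after filterByExpr (minimum count 10, minimum total 15), with Benjamini-Hochberg adjustment over all 13629 genes at 0.05. Standard errors were obtained as log2 fold change over root F, and the 95% interval uses the fit's degrees of freedom. DESeq2 1.42.0 was run on the same filtered genes, with undefined adjusted p kept so, and limma 3.58.1 with voom. The tests were tested on simulated data. Exon lengths, overlaps and positions came from GENCODE M21 (GRCm38), with exons of a gene merged. Summed marker levels take all counts of a library as its size, and the values of single genes take the counts of tested genes.

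The members and gene lists were chosen with earlier results of these data known. Genes named beside the members were those called in a list or, failing that, up to 3 with the largest fold change among those without overlap between groups, plus Med12, 2 genes of a marker list and the 3 nearest patterns for Bmp2 and for Bmp10. The receptor, SMAD and TGF-beta genes, Id4 and Sost fall outside this rule and were chosen after their values were seen. The labels do not tie each library to an animal, so each p-value reflects only how far these samples spread, which may be technical. No library was a copy of another of its group, with chi-square over degrees of freedom between 15.35 and 31.0 for each pair. A count of 0 allows up to 3 counts, or 0.275 to 0.355 CPM by library, for counting error only. Alternatives tried were DESeq2, voom, other scaling and filters, blocks, subsets and each library left out. RefSeq promoter entries were found for 7 of the 10 members, and none was found for Bmp2, Bmp7 and Id1.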

Additional observations from a re-analysis of the deposited data

How the results depend on the processing

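Over 16 alternatives to the edgeR fit, Bmp2 kept a negative log2 fold change between −1.46 and −1.15, and it passed the threshold in 1, DESeq2, which called 1 of the 10 members where edgeR called 0. The number of genes called over the whole table was 3 in edgeR, 65 in DESeq2 and 1 in the letter I libraries, and between 1 and 3 when a library was left out, with 1 without Med12cKO replicate 3. DESeq2 also took Med12 (−1.06, adjusted p = 0.025) and Hey2 past the threshold. The replicate numbers of the titles are not said to pair animals. Deviations of same-numbered libraries correlated at −0.31, 0.44 and −0.35 over genes. Such correlations cannot decide on pairing, since shared tissue enters them. The highest, 0.71, joined Med12cKO replicate 1 and CTL replicate 3, the libraries with thymus transcripts. With the replicate numbers as a block 2 genes and 0 members were called. The remaining members had log2 fold changes near 0, or loosely bounded, whose sign turned with the setting, and none passed in any alternative. The cause was not tested. With library totals only, Bmp7 was 0.024, Id1 0.014 and Id2 0.029. With the replicate block Bmp7 was 2.2e-05, Bmp10 −0.26 and Id2 0.0103. With the letter block Bmp10 was −0.36 and Id2 0.0092. In the letter I libraries Bmp7 was 0.14, Bmp10 −1.41, Id1 0.29, Id2 0.18 and Smad6 0.022. With limma-voom Bmp7 was 0.0037, Bmp10 −0.30 and Id2 0.0132, with DESeq2 Id2 was 0.0015, with its size factors in edgeR 0.0013, and with no filter on low counts Bmp10 was −0.0037. Without both libraries that held thymus transcripts Bmp4 was −0.048, Bmp6 −0.054 and Id3 −0.081. Leaving out each library in turn gave ranges of −0.48 to 0.054 for Bmp5, −0.16 to 0.073 for Bmp7, −1.14 to 0.64 for Bmp10, −0.21 to 0.17 for Id1, −0.12 to 0.15 for Id2 and −0.10 to 0.17 for Id3. Low counts limit the precision of several named genes, such as Nrg1 with 5 to 31 counts a library.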

Other observations

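Genes of the TGF-beta branch, which signals through SMAD2 and SMAD3, were measured for 13 of 15 listed symbols. None passed edgeR over all genes or DESeq2, and 1 had an unadjusted p under 0.05, beside 3.78% of all genes. This was Ctgf, a matrix-associated growth factor gene, at 185, 192 and 106 CPM in Med12cKO replicates 1 to 3, against 123, 89.6 and 116 CPM in CTL replicates 1 to 3 (log2 fold change 0.56, SE 0.23, edgeR adjusted p = 0.9999). Med12cKO replicate 3 lay inside the control range. The ligand genes Tgfb2 and Tgfb3 averaged 56.1 ± 10.8 and 60.2 ± 5.26 CPM in Med12cKO, against 48.6 ± 5.41 and 55.7 ± 6.24 CPM in CTL (SD, n = 3 each). The ligand gene Tgfb1 went the other way, at 34.5 ± 7.13 CPM in Med12cKO and 38.2 ± 6.64 CPM in CTL. The median log2 fold change of the list was 0.06.

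Partners of the ID proteins were likewise close to control. Of 10 tested genes for E proteins and other basic helix-loop-helix factors, 0 passed edgeR or DESeq2, and the median log2 fold change was 0.03. The exception in size was Hand1, a transcription factor gene of the embryonic left ventricle, at 5.98, 4.64 and 6.995 CPM in Med12cKO replicates 1 to 3, against 3.80, 3.144 and 3.25 CPM in CTL replicates 1 to 3. Its groups did not overlap (log2 fold change 0.79, SE 0.25, edgeR adjusted p = 0.850). It was the 1 gene of the list with an unadjusted p under 0.05, beside 3.78% of all genes.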
